A study of Homo sapiens with 12 samples.

Results

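The genes described here were the matrix metalloproteinases (MMPs), the ADAM and ADAMTS metalloproteinases and the tissue inhibitors of metalloproteinases (TIMPs) in a human bladder cancer cell line. Members were all genes of the count table named MMP, ADAM or ADAMTS with a number, or TIMP1 to TIMP4, whose counts over the 12 libraries reached 10. Of 67 genes with such a name, 45 met this minimum, out of 60666 genes in the table, of which 27806 met it. They were 14 MMP, 13 ADAM, 14 ADAMTS and 4 TIMP genes. RNA was sequenced from HT1376, an established human bladder carcinoma line, in 2 CRISPR/Cas9 derivatives that the study grew from single cells: a control knockout line, HT1376 CT (labelled WT), and a line with guides against exon 2 of the transcription factor gene FOXP3, HT1376 FOXP3 KO. Each was sampled untreated and after 48 hours with interferon gamma (IFNγ), with 3 libraries in each of the 4 groups, numbered 11, 12 and 13 in every group. Because each line descended from 1 cell, a difference between the lines cannot be told apart from a difference between 2 clones, and loss of FOXP3 is only 1 of the ways in which they may differ.

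MMPs, ADAMs and ADAMTSs are zinc-dependent proteases. Secreted MMPs cut collagens, gelatin and other matrix proteins, and membrane-type MMPs do so at the cell surface, where MMP14 with TIMP2 also activates the MMP2 proenzyme. ADAMs release the ectodomains of growth factors, cytokines and adhesion molecules, ADAM10 and ADAM17 being the principal sheddases, while ADAMTSs are secreted enzymes that cut proteoglycans such as versican and aggrecan, process procollagens or cleave single plasma proteins. TIMPs bind the active site of MMPs, and TIMP3, which is held in the matrix, also inhibits several ADAMs and ADAMTSs. In bladder carcinoma these enzymes have long been studied for their part in invasion and in the release of growth factors.

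Library totals ranged from 4490684 to 39270042 counts, with the smallest library in the HT1376 CT group with IFNγ. FOXP3 itself had between 0 and 3 counts in each library, so its level could not be used to check the labels. The 10 urothelial and epithelial markers examined were all detected in every group, with a summed level between 4023 and 5239 CPM (counts scaled to a common library size and normalized for composition). Singly, 3 were higher and 3 lower in the untreated knockout line, beside 14% and 18.2% of all genes. With IFNγ 2 were higher and 2 lower, beside 13.2% and 15.7%. IRF1, GBP5 and CIITA, 3 genes that IFNγ is known to induce, rose with IFNγ in both lines. With IFNγ they were nonetheless lower in HT1376 FOXP3 KO than in HT1376 CT (log2 fold change -1.17, -1.37 and -1.98). Their summed level with IFNγ was 1845 to 2067 CPM in HT1376 CT and 706 to 793 CPM in HT1376 FOXP3 KO. Of 5 fibroblast markers, COL1A2, DCN, LUM and PDGFRB were higher and COL1A1 was lower in the knockout line, and their summed level was 45.4 to 62.9 CPM in the HT1376 CT libraries and 473 to 704 CPM in the HT1376 FOXP3 KO libraries. With IFNγ these ranges were 24.5 to 33.9 CPM and 443 to 638 CPM. The summed levels of the endothelial markers (PECAM1, CDH5) and the leukocyte markers (PTPRC, CD3E, CD14) did not exceed 1.83 and 2.45 CPM in a library. The fibroblast markers thus moved with the line, as did many of the proteases below, and their part in those differences was not tested. As in any bulk sample, fewer cells of a type and less RNA per cell cannot be told apart.

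The inhibitors outweighed the proteases at the level of RNA, by a margin that depended on the length used as divisor. That length covered all annotated exons of a gene, such as 4597 bases for TIMP3 and 17704 for ADAM9. Divided by exonic length, the 4 TIMP genes together had 361 ± 32.1 CPM per kb in HT1376 CT, 319 ± 51.2 in HT1376 CT with IFNγ, 375 ± 12.6 in HT1376 FOXP3 KO and 386 ± 10.1 in HT1376 FOXP3 KO with IFNγ (mean ± SD, n = 3), which was between 66.1% and 73.1% of the sum over all 45 genes. The 13 ADAM genes summed to 94.3 ± 16.9 and 93.5 ± 10.05 CPM per kb in the 2 HT1376 CT groups, and to 53.5 ± 4.61 and 49.1 ± 4.92 in the 2 HT1376 FOXP3 KO groups. These ranges did not overlap between the lines. ADAM8 went from 29.8 to 1.75 and ADAM9 from 24.7 to 10.2 CPM per kb between the untreated lines. The mean sum of the other ADAM genes was not lower in HT1376 FOXP3 KO in either condition. The ADAMTS sum went the other way, at 25.0 ± 5.51 and 29.6 ± 6.16 CPM per kb in HT1376 CT and 48.4 ± 6.54 and 46.2 ± 7.03 in HT1376 FOXP3 KO, and again the lines did not overlap. That rise came from ADAMTS15 alone, at 0.06 and 0.02 CPM per kb in HT1376 CT and 36.4 and 30.4 in HT1376 FOXP3 KO. The mean sum of the other ADAMTS genes was lower in HT1376 FOXP3 KO than in HT1376 CT in both conditions. The MMP sum was 32.8 ± 3.67 and 40.7 ± 3.58 CPM per kb in HT1376 CT against 50.7 ± 10.4 and 46.9 ± 13.2 in HT1376 FOXP3 KO, where with IFNγ the ranges overlapped. Of this sum MMP14 alone made up 12.2 and 10.2 CPM per kb in HT1376 CT and 28.6 and 22.7 in HT1376 FOXP3 KO. Without division by length, the sums in HT1376 CT were 1723 CPM for TIMP, 1011 for ADAM, 199 for ADAMTS and 130 for MMP. With IFNγ they were 1493, 945, 221 and 148 CPM in that order. In HT1376 FOXP3 KO they were 1731, 631, 305 and 209 CPM, and 1780, 586, 296 and 187 CPM with IFNγ. These sums are a description and were not tested.

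**Figure D1:**
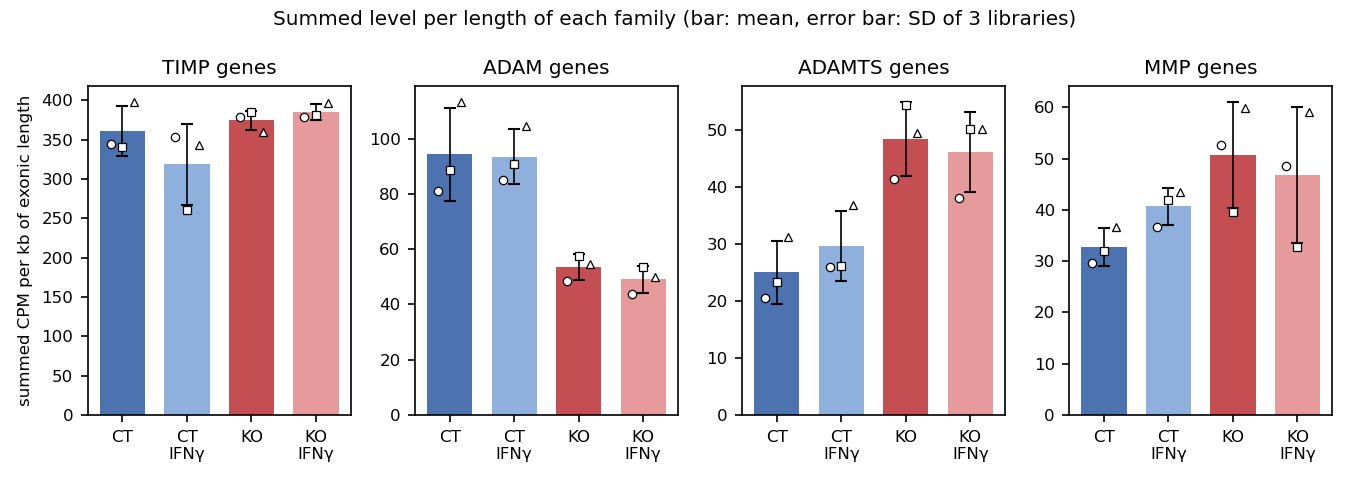
Summed level per length (CPM per kb of exonic length) of the TIMP, ADAM, ADAMTS and MMP genes in the 4 groups, with bars for the mean of 3 libraries, error bars for the SD and circles, squares and triangles for the libraries numbered 11, 12 and 13. The TIMP bars lie between 319 and 386 CPM per kb, the ADAM bars fall from 94.3 in CT to 53.5 in KO, and the ADAMTS bars rise from 25.0 to 48.4. ADAM8 and ADAM9 make up 29.8 and 24.7 of the 94.3 in CT and 1.75 and 10.2 of the 53.5 in KO. ADAMTS15 alone makes up 36.4 of the 48.4, and the other ADAMTS genes together are lower in KO than in CT.

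Within these sums a few genes made up most of the level. TIMP3 was at rank 1 per kb in every group. TIMP2 was at rank 2 in both HT1376 CT groups, at 81.4 ± 11.9 CPM per kb untreated, and was at rank 5 in both HT1376 FOXP3 KO groups, where ADAMTS15 took rank 2 at 36.4 ± 6.79 CPM per kb untreated. ADAM8 was at rank 3 in HT1376 CT at 29.8 ± 9.37 CPM per kb and ADAM9 at rank 4 at 24.7 ± 1.33, 2 neighbours whose levels per kb did not differ beyond their spread. Their order rests on exonic lengths of 4763 and 17704 bases. In CPM ADAM9 stood above ADAM8 in HT1376 CT, at 437 ± 23.5 against 142 ± 44.6. MMP14 was at rank 3 in HT1376 FOXP3 KO at 28.6 ± 4.99 CPM per kb. In each group 24 of the 45 genes had a mean of at least 1 CPM.

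The lines differed in proteases of all 3 families and in the inhibitors. Untreated, 21 of 45 genes differed between HT1376 FOXP3 KO and HT1376 CT in the quasi-likelihood test of edgeR (Benjamini-Hochberg adjusted over all genes tested, threshold 0.05), 7 higher and 14 lower in HT1376 FOXP3 KO. Over all 25320 genes tested the percentage called was 32.1%, with 14% higher and 18.2% lower, and over these genes it was 46.7%. With IFNγ, 20 of 40 genes tested differed, 6 higher and 14 lower, where 28.9% of all 24388 genes were called, 13.2% higher and 15.7% lower. The median log2 fold change of the members was -0.43 untreated and -0.51 with IFNγ, beside -0.02 and 0.02 over all genes tested. The 2 comparisons share no library, and 15 genes were called in the same direction in both, 5 higher and 10 lower, with 0 in opposite directions. That was 71.4% of the genes called untreated and 75% of those called with IFNγ, beside 67.7% and 78.2% over all genes. In all, 26 genes were called in either comparison and 19 in neither. Over all genes 8135 were called untreated and 7046 with IFNγ, 5509 of them in both in the same direction and 7 in opposite directions. The total of 26 is thus a description and was not set against a share of all genes.

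**Figure D2:**
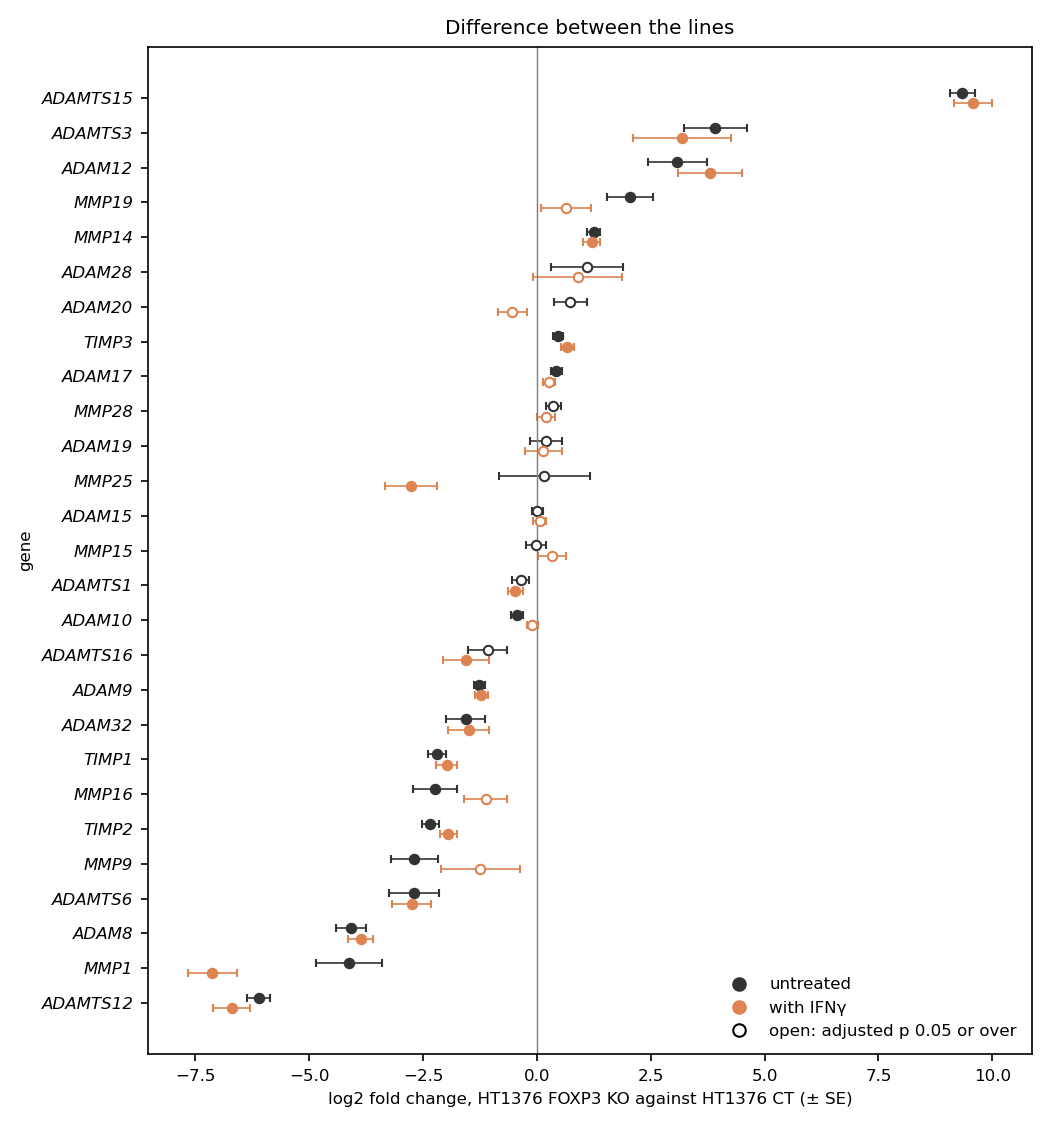
Difference of HT1376 FOXP3 KO from HT1376 CT as log2 fold change, untreated (black) and with IFNγ (orange), for the 27 genes with a group mean of at least 1 CPM whose difference is not given as a bound. Points are fitted log2 fold changes, bars are ± 1 SE, and open points have an adjusted p of 0.05 or over; ADAMTS15 lies at 9.34 and 9.57 and ADAMTS12 at -6.11 and -6.70.

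Among the inhibitors, TIMP1 and TIMP2 were lower and TIMP3 was higher in HT1376 FOXP3 KO. In each series of values below the libraries numbered 11, 12 and 13 are given in that order. TIMP2 (ENSG00000035862, chr17:78852977-78925387 in GRCh38) stood at 421, 539.6 and 556 CPM in HT1376 CT and at 85.7, 83.1 and 129 CPM in HT1376 FOXP3 KO. With IFNγ it stood at 339, 352 and 421 CPM and at 81.4, 73.9 and 125 CPM. All the libraries of the knockout line thus lay below all those of the control line, and the log2 fold change was -2.34 ± 0.18 (SE, adjusted p = 4.02e-06) untreated and -1.94 ± 0.18 (SE, adjusted p = 1.69e-05) with IFNγ. TIMP1 (ENSG00000102265, chrX:47582408-47586789), a secreted inhibitor of most MMPs, had 24.4, 34.0 and 33.6 CPM in HT1376 CT and 5.51, 6.72 and 7.95 CPM in HT1376 FOXP3 KO. With IFNγ its values were 29.2, 33.2 and 31.9 CPM and 5.63, 6.74 and 10.4 CPM, again with no overlap. Its log2 fold change was -2.19 ± 0.20 (SE, adjusted p = 1.11e-05) untreated and -1.98 ± 0.23 (SE, adjusted p = 6.83e-05) with IFNγ.

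TIMP3 (ENSG00000100234, chr22:32801705-32863041) changed by a smaller factor but at a much higher level. It had 1192, 1057 and 1309.9 CPM in HT1376 CT and 1656, 1684 and 1535 CPM in HT1376 FOXP3 KO, and 1280.3, 829 and 1162 CPM and 1662, 1674 and 1699 CPM with IFNγ. The lines did not overlap in either condition, and the log2 fold change was 0.46 ± 0.10 (SE, adjusted p = 0.00612) untreated and 0.67 ± 0.14 (SE, adjusted p = 0.00405) with IFNγ. TIMP4 (ENSG00000157150, chr3:12153068-12158912) was scarce, at 0.467, 1.27 and 0.841 CPM in HT1376 CT and 0.602, 0.627 and 0.288 CPM in HT1376 FOXP3 KO, and at 0.388, 0 and 0.335 CPM and 0.134, 0.214 and 0.194 CPM with IFNγ. No difference between the lines was detectable for it at this depth, with log2 values of -0.74 ± 0.58 and -0.55 ± 1.02.

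Of the 14 MMP genes, 2 were higher and 4 lower in the untreated knockout line, beside 14% and 18.2% of all genes, and 1 was higher and 3 lower of the 12 tested with IFNγ, beside 13.2% and 15.7%. MMP14 (ENSG00000157227, chr14:22836560-22849041), the membrane-type enzyme that cuts fibrillar collagen at the cell surface, was the most abundant of those that were higher. It had 51.1, 53.8 and 63.6 CPM in HT1376 CT and 139, 107 and 151 CPM in HT1376 FOXP3 KO, and 41.8, 47.8 and 51.5 CPM and 106, 75.5 and 133 CPM with IFNγ. The lowest knockout library, number 12 with IFNγ, still lay above the highest control library. The log2 fold change was 1.24 ± 0.15 (SE, adjusted p = 8.13e-05) untreated and 1.20 ± 0.19 (SE, adjusted p = 0.000647) with IFNγ.

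The interstitial collagenase MMP1 (ENSG00000196611, chr11:102789401-102798160) was barely detected in the knockout line. It had 2.16, 3.82 and 4.78 CPM in HT1376 CT against 0, 0.179 and 0.461 CPM in HT1376 FOXP3 KO, the latter from 0, 2 and 8 counts. With IFNγ it had 16.1, 25.4 and 21.5 CPM against 0, 0 and 0.259 CPM, the latter from 0, 0 and 8 counts. The log2 fold change was -4.12 ± 0.72 (SE, adjusted p = 0.00127) untreated and -7.13 ± 0.53 (SE, adjusted p = 2.97e-06) with IFNγ, and since the knockout values rest on so few counts the second ranged from -10.87 to -6.70 as 1 library at a time was left out. The gelatinase MMP2 (ENSG00000087245, chr16:55389700-55506691) was low in both lines, at 10, 23 and 47 counts in HT1376 CT and 1, 3 and 0 counts in HT1376 FOXP3 KO, and 3, 3 and 15 counts and 0, 0 and 1 counts with IFNγ. Relative to library size the knockout level was a fraction 0.0654 (exact 95% counting interval 0.0174 to 0.174) of the control level untreated and 0.0281 (exact 95% counting interval 0.00068 to 0.175) with IFNγ, with adjusted p = 0.00846 and 0.0145. The intervals cover counting error only. With IFNγ the adjusted p was 0.0518 without HT1376 FOXP3 KO with IFNγ replicate 11.

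Other MMPs were called in 1 condition. Untreated, the gelatinase MMP9 (log2 fold change -2.69 ± 0.52) and the membrane-type MMP16 (-2.25 ± 0.48) were lower and the secreted MMP19 (2.04 ± 0.51) was higher in HT1376 FOXP3 KO. With IFNγ their values were -1.24 ± 0.87, -1.13 ± 0.47 and 0.64 ± 0.55, and none passed the test, although with the replicate number as a block, fitted here and below with edgeR's bias-adjusted deviance, MMP16 did (adjusted p = 0.0201). MMP25, a membrane-type MMP anchored by a lipid, was lower in HT1376 FOXP3 KO with IFNγ (-2.77 ± 0.57) and not called untreated (0.16 ± 0.99). MMP25-AS1, which overlaps 30.6% of the exonic bases of MMP25 on the opposite strand, was also lower with IFNγ (-2.45 ± 0.18 (SE, adjusted p = 2.2e-06)). Untreated it was not called (-0.40 ± 0.31). MMP28, known as epilysin, and MMP15 were expressed in both lines and not called in either condition without a block, with values of 0.36 ± 0.16 and -0.02 ± 0.21 untreated. The block without bias adjustment called MMP28 untreated (adjusted p = 0.0327), and with bias adjustment the adjusted p was 0.0601. MMP19 shares 17.6% of its exonic bases with the gene TMEM198B on the opposite strand, which was itself higher in HT1376 FOXP3 KO (1.18 ± 0.25 (SE, adjusted p = 0.00478) untreated). Similarly MMP9 shares 18.4% of its exonic bases with SLC12A5-AS1, which was not called, and whether counting used strand is not given in the sources used here, so reads of such pairs may not be told apart.

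Among the 13 ADAM genes, 2 were higher and 4 lower in the untreated knockout line (14% and 18.2% of all genes were), and 1 was higher and 3 lower of the 12 tested with IFNγ (13.2% and 15.7% of all genes). ADAM8 (ENSG00000151651, chr10:133262420-133276868), a sheddase first described in leukocytes, had 112, 119.9 and 193 CPM in HT1376 CT and 4.90, 7.25 and 12.9 CPM in HT1376 FOXP3 KO. With IFNγ the values were 151, 150.3 and 208 CPM and 9.11, 7.17 and 16.6 CPM. The highest knockout library of either condition was thus far below the lowest control library, and the log2 fold change was -4.09 ± 0.33 (SE, adjusted p = 5.70e-06) untreated and -3.87 ± 0.28 (SE, adjusted p = 2.10e-06) with IFNγ. ADAM9, the most abundant ADAM by CPM in HT1376 CT, was lower, with differences of -1.27 ± 0.12 untreated and -1.22 ± 0.15 with IFNγ on the log2 scale. ADAM32, which lacks a catalytic zinc site, starts 1544 bases beyond the end of ADAM9 on chromosome 8 and was lower as well (-1.56 ± 0.43 and -1.50 ± 0.45), a call lost in 4 of 6 and in 3 of 6 fits that left out 1 library (untreated HT1376 CT 12 and 13 and HT1376 FOXP3 KO 11 and 13; with IFNγ HT1376 CT 12 and HT1376 FOXP3 KO 11 and 13).

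ADAM12 (ENSG00000148848, chr10:126012381-126388477), a protease of the muscle and mesenchymal lineage, was the ADAM with the largest increase. It had 0, 0.715 and 0.894 CPM in HT1376 CT and 3.91, 6.99 and 3.86 CPM in HT1376 FOXP3 KO, and 0, 0.462 and 0.559 CPM and 3.48, 8.02 and 3.31 CPM with IFNγ. Every knockout library exceeded every control library, with a log2 fold change of 3.09 ± 0.65 (SE, adjusted p = 0.00427) untreated and 3.80 ± 0.71 (SE, adjusted p = 0.00199) with IFNγ. The principal sheddases differed by small factors. ADAM10 (ENSG00000137845, chr15:58588809-58749791) had 158, 162 and 167 CPM in HT1376 CT and 104, 109 and 145 CPM in HT1376 FOXP3 KO, and 139, 133 and 138 CPM and 112, 126 and 132 CPM with IFNγ. It was lower untreated (-0.43 ± 0.13 (SE, adjusted p = 0.0292)), a call that was lost when any 1 library other than HT1376 FOXP3 KO replicate 13 was left out, and not called with IFNγ (-0.10 ± 0.11).

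ADAM17 (ENSG00000151694, chr2:9488486-9556732), which releases tumor necrosis factor and several growth factors, had 110.2, 111 and 112 CPM in HT1376 CT and 137, 166 and 143 CPM in HT1376 FOXP3 KO. With IFNγ it had 129, 142 and 129.5 CPM and 138, 179 and 147 CPM, and here the lines overlapped. It was higher untreated (0.43 ± 0.11 (SE, adjusted p = 0.0124)) and not called with IFNγ (0.26 ± 0.13). Of its exonic bases 10.3% lie opposite IAH1, which was also higher in HT1376 FOXP3 KO (0.45 ± 0.14 (SE, adjusted p = 0.0299) untreated). ADAM15 and ADAM19 were expressed in all groups and not called, with log2 values of 0.01 ± 0.12 and 0.19 ± 0.35 untreated. ADAM20 and ADAM21, neighbouring paralogs on chromosome 14 between which reads may be split, were not called either.

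The ADAMTS family held the genes ADAMTS15 and ADAMTS12, whose differences were large and in opposite directions. Untreated, 2 of 14 genes were higher and 4 lower in the knockout line, and with IFNγ 3 were higher and 6 lower of 12 tested. Over all genes the shares were 14% and 18.2% untreated and 13.2% and 15.7% with IFNγ. ADAMTS15 (ENSG00000166106, chr11:130448645-130476645), which cuts the proteoglycans versican and aggrecan, had 0.35, 0.556 and 0.237 CPM in HT1376 CT and 179, 260.1 and 217 CPM in HT1376 FOXP3 KO. With IFNγ the values were 0, 0 and 0.447 CPM and 145, 204 and 198 CPM. The control libraries held 6, 7 and 9 counts and the knockout libraries 4150, 2904 and 3765 counts, so a gene barely detected in the control line was at rank 2 per kb in the knockout line. The log2 fold change was 9.34 ± 0.27 (SE, adjusted p = 6.72e-09) untreated and 9.57 ± 0.42 (SE, adjusted p = 7.73e-08) with IFNγ. The latter ranged from 9.04 to 14.34 with 1 library left out, the highest value arising where the remaining control libraries had 0 counts.

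ADAMTS12 (ENSG00000151388, chr5:33523535-33892019), which cuts cartilage oligomeric matrix protein, showed the opposite pattern. It had 59.4, 89.3 and 88.2 CPM in HT1376 CT and 0.774, 1.52 and 1.27 CPM in HT1376 FOXP3 KO, and 25.8, 46.2 and 47.1 CPM and 0.134, 0.214 and 0.551 CPM with IFNγ. The log2 fold change was -6.11 ± 0.26 (SE, adjusted p = 5.94e-08) untreated and -6.70 ± 0.41 (SE, adjusted p = 6.66e-07) with IFNγ, with no overlap of the libraries. The size of the second value rests on few reads, since the knockout libraries with IFNγ held 2, 2 and 17 counts. ADAMTS6 had 4.79, 5.01 and 10.1 CPM in HT1376 CT and 0.301, 2.06 and 0.98 CPM in HT1376 FOXP3 KO, and 4.46, 8.31 and 11.9 CPM and 0.804, 1.39 and 1.36 CPM with IFNγ. All its control libraries again lay above all its knockout libraries, with differences of -2.70 ± 0.56 (SE, adjusted p = 0.0035) and -2.75 ± 0.42 (SE, adjusted p = 0.000543) on the log2 scale. ADAMTS20, a versican-cutting relative of ADAMTS9, had 12, 14 and 30 counts in HT1376 CT and 27, 2 and 18 counts with IFNγ, and 0 counts in all 6 knockout libraries. Set against a floor of 3 counts per library it was at least 4.56-fold lower untreated (adjusted p = 0.00181) and at least 6.60-fold lower with IFNγ (adjusted p = 0.00308). The second bound leaned on library 11 of HT1376 CT with IFNγ, at 2.62 CPM beside 0.462 and 1.01 CPM in libraries 12 and 13.

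The procollagen processing enzymes ADAMTS3 and ADAMTS14 went in opposite directions in the untreated lines. ADAMTS3 had 0, 1 and 10 counts in HT1376 CT and 36, 22 and 57 counts in HT1376 FOXP3 KO, and 0, 0 and 5 counts and 12, 2 and 81 counts with IFNγ. It was higher by 3.91 ± 0.70 (SE, adjusted p = 0.00141) untreated and by 3.19 ± 1.08 (SE, adjusted p = 0.0464) with IFNγ, where the lines overlapped and the call was lost without any 1 library other than HT1376 FOXP3 KO with IFNγ replicate 12. ADAMTS14 had 12, 19 and 27 counts in untreated HT1376 CT and 0 counts in the 3 untreated knockout libraries, which made it at least 5.12-fold lower (adjusted p = 0.00208). With IFNγ it had 5, 2 and 10 counts in HT1376 CT and 0, 0 and 5 counts in HT1376 FOXP3 KO and was not called (-2.61 ± 1.12 (SE, adjusted p = 0.108)). ADAMTS5, the major aggrecanase of cartilage, had 1, 2 and 9 counts in HT1376 CT and 10, 1 and 30 counts in HT1376 FOXP3 KO, and 1, 0 and 0 counts and 7, 18 and 24 counts with IFNγ. Only the latter pair was called (adjusted p = 0.0118), with a ratio of 28.9 (exact 95% counting interval 4.95 to 1165), although with the replicate block the untreated pair was called too (adjusted p = 0.00926). The call with IFNγ gave an adjusted p of 0.0679 when library 13 of HT1376 CT with IFNγ was left out.

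ADAMTS1, ADAMTS16 and ADAMTS17 were lower in HT1376 FOXP3 KO with IFNγ, the first 2 with differences of -0.47 ± 0.16 and -1.56 ± 0.51 on the log2 scale (adjusted p = 0.048 and 0.0414). ADAMTS17 was present in the knockout at a fraction 0.0437 (exact 95% counting interval 0.00504 to 0.174) of the control level (adjusted p = 0.0294). These 3 calls were lost in 5, 4 and 5 of 6 fits that left out 1 library, and held only without HT1376 CT with IFNγ replicate 12 for ADAMTS1 and ADAMTS17 and without HT1376 CT with IFNγ replicate 11 or HT1376 FOXP3 KO with IFNγ replicate 12 for ADAMTS16. DESeq2 did not call ADAMTS16 with IFNγ either (adjusted p = 0.123). Untreated they were not called, but with the replicate block the adjusted p was 0.0414 for ADAMTS1, 0.000775 for ADAMTS16 and 0.021 for ADAMTS17. The block also added MMP12 (adjusted p = 0.0295), a macrophage elastase with at most 10 counts in a library. Without the bias adjustment the block did not call untreated ADAMTS5, ADAMTS17 or MMP12 (adjusted p = 0.0955, 0.0735 and 0.0824). ADAMTS13, the protease of von Willebrand factor, and ADAMTS4, ADAMTS9 and ADAMTS10 were not called in either condition where they were tested.

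**Figure D3:**
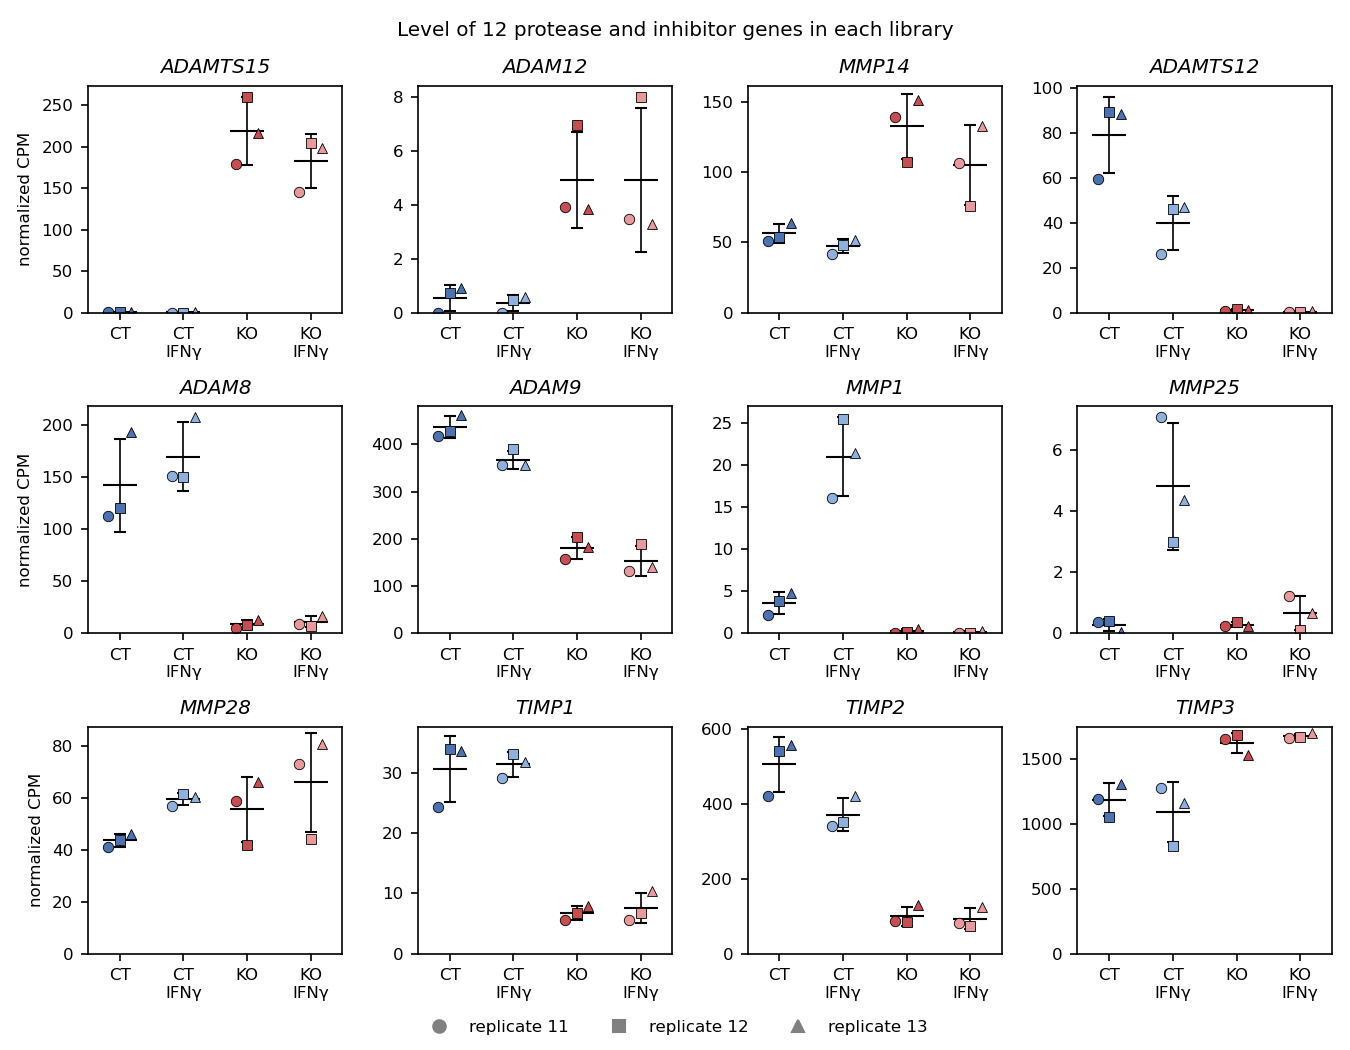
Normalized CPM of 12 genes in each library on linear axes from 0, by group, with circles, squares and triangles for the libraries numbered 11, 12 and 13, a dash for the mean and error bars for the SD. ADAMTS15, ADAM12, MMP14 and TIMP3 are higher in every KO library than in any CT library of the same condition, and ADAMTS12, ADAM8, ADAM9, MMP1, TIMP1 and TIMP2 are lower.

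The number of genes called with IFNγ depended on the pairing of the libraries. In HT1376 CT, 4 of 42 genes were called without the replicate block and 17 with it, and in HT1376 FOXP3 KO 0 and 6 of 39. Without the block 3 genes rose and 1 fell in HT1376 CT, where 5.35% of all genes were called, 3.53% higher and 1.82% lower. MMP1 and MMP25 rose. MMP1 went from 2.16, 3.82 and 4.78 CPM to 16.1, 25.4 and 21.5 CPM, a log2 fold change of 2.53 ± 0.29 (SE, adjusted p = 0.00024). All the treated libraries lay above all the untreated ones, as they did for MMP25 (ENSG00000008516, chr16:3046062-3060726), which went from 0.35, 0.397 and 0.0263 CPM to 7.08, 3.0 and 4.36 CPM, a log2 fold change of 4.55 ± 0.68 (SE, adjusted p = 0.00173). Both calls held with each library left out in turn and under each alternative tried. MMP25 shares 30.6% of its exonic bases with MMP25-AS1 on the opposite strand, which rose as well (3.82 ± 0.15 (SE, adjusted p = 3.16e-08) in HT1376 CT and 1.75 ± 0.30 (SE, adjusted p = 0.0294) in HT1376 FOXP3 KO).

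MMP28 (ENSG00000271447, chr17:35756249-35795707) and ADAMTS12 were the other 2 calls. MMP28 went from 41.0, 43.9 and 45.9 CPM to 56.8, 61.4 and 60.4 CPM (0.47 ± 0.12 (SE, adjusted p = 0.0387)), and ADAMTS12 went down as given above (-0.98 ± 0.23 (SE, adjusted p = 0.0292)). Neither overlapped between the groups, but the MMP28 call was lost with any 1 of the 6 libraries left out and the ADAMTS12 call without HT1376 CT replicate 12 or 13 or HT1376 CT with IFNγ replicate 11 or 13. The replicate number as a block raised the count in HT1376 CT to 17 genes, 9 higher and 8 lower, where 16.8% of all genes were called in that fit, 8.51% higher and 8.29% lower. The added genes included TIMP2 (log2 fold change -0.43 ± 0.13 without the block, adjusted p = 0.000621 with it), ADAMTS1 (0.62 ± 0.21, 9.52e-05), MMP15 (-0.91 ± 0.25, 0.00768), MMP16 (-1.27 ± 0.34, 0.00129) and ADAM20 (1.27 ± 0.36, 0.0103). The sheddases ADAM10 (-0.23 ± 0.10, 0.0323) and ADAM17 (0.28 ± 0.10, 0.0211) were among them, in opposite directions. The others were ADAM8 (0.28 ± 0.20, 0.0224), ADAMTS16 (0.80 ± 0.41, 0.000477) and MMP19 (1.19 ± 0.44, 0.00695), which were higher, and ADAM9 (-0.23 ± 0.10, 0.0247), ADAM19 (-0.36 ± 0.47, 0.0203) and MMP9 (-1.24 ± 0.53, 0.00509), which were lower. Of the 42 genes, 15 had groups without overlap, beside 23.9% of all genes.

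In HT1376 FOXP3 KO, 0 of 39 genes tested passed edgeR's quasi-likelihood test with IFNγ, where 0.982% of all genes did. At an unadjusted p under 0.05 there were 3, beside 5.37% of all genes, and DESeq2 called 0, beside 342 of all genes. These 3 were ADAMTS1 (0.48 ± 0.12), ADAMTS12 (-1.79 ± 0.60) and MMP15 (-0.60 ± 0.26). With the replicate block 6 genes were called, 1 higher and 5 lower, where 4.26% of all genes were, 3.29% higher and 0.97% lower. ADAMTS1 was the one that rose (adjusted p = 0.000562), and ADAM9, ADAM19, ADAMTS15, MMP14 and MMP15 fell (adjusted p = 0.0495, 0.000555, 0.0293, 0.00898 and 0.0219). The block without bias adjustment called 7, beside 5.53% of all genes, MMP28 included (adjusted p = 0.0265). MMP1, which had 0, 0.179 and 0.461 CPM without and 0, 0 and 0.259 CPM with IFNγ, gave -0.86 ± 1.48, and MMP25, which went from 0.215, 0.358 and 0.231 CPM to 1.21, 0.107 and 0.648 CPM, gave 1.38 ± 0.78.

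An interaction term fitted to the 12 libraries tested whether the lines responded differently to IFNγ. None of the 45 genes passed (0.111% of all genes did), 4 had an unadjusted p under 0.05, beside 6.21% of all genes, and DESeq2 called 0. The 4 were MMP25 (-3.09 ± 1.12 (SE, adjusted p = 0.684)), MMP1 (-3.04 ± 1.16 (SE, adjusted p = 0.71)), ADAM20 (-1.31 ± 0.45 (SE, adjusted p = 0.649)) and ADAMTS14, which had no count in untreated HT1376 FOXP3 KO. So the rise of MMP1 and MMP25 in HT1376 CT was not shown by this test to differ from the response in HT1376 FOXP3 KO. With genes kept down to 1 count in total, MMP1 alone passed (adjusted p = 0.0203). MMP25-AS1, which overlaps MMP25, did pass the interaction (-2.07 ± 0.31 (SE, adjusted p = 0.0122)). So did the IFNγ-induced genes IRF1 (-0.93 ± 0.15 (SE, adjusted p = 0.0171)) and GBP5 (-3.13 ± 0.48 (SE, adjusted p = 0.0148)), but not CIITA. The IFNγ response in HT1376 CT shares its libraries with both line comparisons, so the values of MMP1 and MMP25 in them are not independent of each other.

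**Figure D4:**
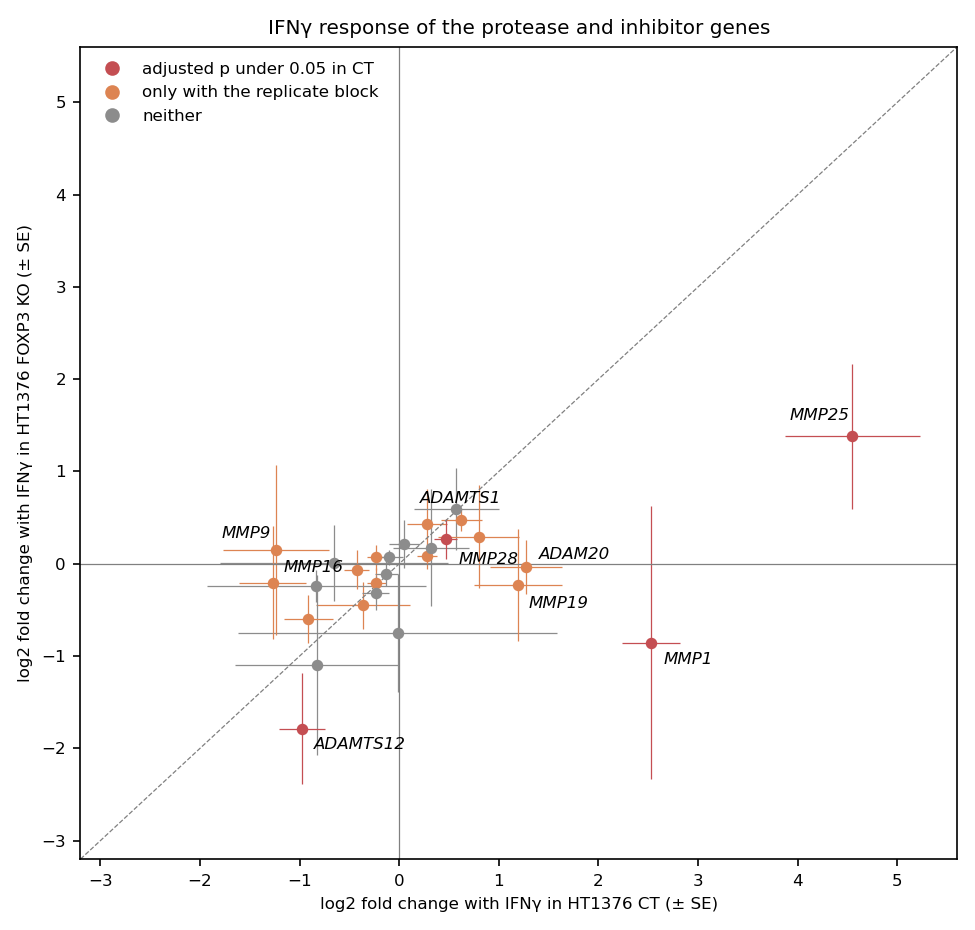
Log2 fold change with IFNγ in HT1376 CT (horizontal) and in HT1376 FOXP3 KO (vertical) for the 27 genes with a group mean of at least 1 CPM whose change is not given as a bound, with ± 1 SE on both axes and the line of equal change dashed. MMP25 (4.55 and 1.38) and MMP1 (2.53 and -0.86) lie farthest to the right, and most other genes lie within 1 unit of 0 on both axes.

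Other genes of the same system moved between the lines too, and their counts stand beside the 14% of all genes that were higher and 18.2% lower untreated, and the 13.2% and 15.7% with IFNγ. Of 10 tested genes of plasminogen activation, which feeds into the activation of MMP proenzymes, 0 were higher and 7 lower in the untreated knockout line, and 0 and 6 with IFNγ, with a median log2 fold change of -1.95 and -1.78. Those most highly expressed were ANXA2, a receptor for plasminogen (-1.10 untreated and -1.07 with IFNγ), the inhibitor SERPINB2 (-4.07 and -4.81), the urokinase gene PLAU (-2.50 and -2.49) and the inhibitor SERPINE2 (-3.68 and -3.11). Both activators and inhibitors were thus among the lower genes. Of 22 tested activators, inhibitors and partners of these proteases, 5 were higher and 9 lower untreated and 4 and 9 with IFNγ. They included FURIN, the convertase that cuts the propeptide of membrane-type MMPs and ADAMs (-2.15 and -2.03), the proteoglycan SPOCK1 (-3.18 and -3.00) and the tetraspanins TSPAN14 (-0.86 and -0.67) and TSPAN17 (-1.22 and -0.90), which help ADAM10 mature.

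Genes for known substrates of ADAM10 and ADAM17 were mostly lower in HT1376 FOXP3 KO, with 6 higher and 22 lower of 32 tested untreated, and 5 and 21 of 33 with IFNγ. Of all genes 14% were higher and 18.2% lower untreated and 13.2% and 15.7% with IFNγ, and the same shares apply to the lists that follow. The median log2 fold change was -1.24 and -0.98. Named by their level, they were the hepatocyte growth factor receptor MET (-1.02 and -0.98), the hyaluronan receptor CD44 (-2.46 and -2.58), the growth factor amphiregulin, AREG (-4.84 and -5.03), and E-cadherin, CDH1 (-0.65 and -0.52). With IFNγ in HT1376 CT 5 of the 33 tested rose and 2 fell, beside 3.53% and 1.82% of all genes, MICA (0.71) and MICB (2.08), stress ligands of natural killer cells, being among the former and the syndecan SDC1 (-0.84) among the latter. In HT1376 FOXP3 KO 2 of the 32 tested rose with IFNγ and 0 fell, MICB (2.04) and the chemokine CX3CL1 (4.32), beside 0.982% of all genes called in either direction. The size of the CX3CL1 value is uncertain, since its untreated knockout libraries held 6 counts in total, all in 1 library, against 135 with IFNγ. Matrix substrates went both ways, 7 higher and 5 lower of 19 untreated and 8 and 7 of 18 with IFNγ: fibronectin FN1 (1.74 and 2.69) and fibrillin FBN1 (1.48 and 2.55) were higher, and the laminin chain LAMA3 (-4.90 and -4.33) and thrombospondin THBS1 (-5.96 and -5.42) were lower. Among relatives outside the 4 names, 2 were higher and 5 lower of 11 untreated and 2 and 4 of 12 with IFNγ, with the peptidase MME higher (1.21 and 1.01) and the procollagen C-proteinase BMP1 lower (-0.89 and -0.67).

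Transcription factors of the AP-1 and ETS families, which are known regulators of MMP promoters, were 4 higher and 7 lower of 15 untreated, beside 14% and 18.2% of all genes, and 2 and 5 with IFNγ, beside 13.2% and 15.7%. FOSL1 was lower in both (-4.02 and -3.97), as was ETS1 (-2.14 and -2.34). Untreated, ETS2 was higher (0.50) and JUNB lower (-0.45), and with IFNγ FOS (3.49) and JUND (1.01) were higher. Promoter sequence, taken as 250 bases before to 50 bases after the RefSeq start in GRCh38.p14, was held for 24 of the 45 genes. It was not held for ADAM9, ADAM11, ADAM28, ADAM32, ADAMTS1, ADAMTS4, ADAMTS5, ADAMTS9, ADAMTS15, ADAMTS16, MMP1, MMP2, MMP9, MMP12, MMP13, MMP16, MMP17, MMP19, MMP25, MMP28 and TIMP2. On both strands, the AP-1 motif TGANTCA was in 1 of the 24 and in 7.76% of all 27305 promoters of this length, and the forkhead motif TGTTTAC was in 1 of the 24 and in 3.41% of all. The study also screened for the motif A/G T/C AAACA, of which only the form GTAAACA was covered here. The motif TTCNNNGAA, for dimers of STAT factors, and the paired half-site of the interferon-stimulated response element were in 0 of the 24, beside 7.88% and 3.65% of all. The 2 matches are printed here with 30 bases around them because ADAMTS12 fell with IFNγ and differed between the lines and because the forkhead motif is that of the family of FOXP3, with the matched letters in capitals.
ADAMTS12, AP-1, 84 bases before the start, minus strand, chr5:33892056-33892085: acactgtcagcTGAATCActccccttttag
ADAMTS13, forkhead in reverse complement, 47 bases before the start, plus strand, chr9:133422309-133422338: agcttccaagaGTAAACActgcctaatcgt
A match describes the letters in this window and says nothing of binding. The promoters of the 24 genes held a median of 28.5 CpG dinucleotides, beside 14 over all 27305 promoters. All 24 genes are protein-coding, while the wider set was not limited to such genes, so these medians are a description only.

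The 22 genes with a matching name and fewer than 10 counts were ADAM2, ADAM5, ADAM6, ADAM7, ADAM18, ADAM23, ADAM29, ADAM30, ADAM33, ADAMTS2, ADAMTS7, ADAMTS8, ADAMTS18, ADAMTS19, MMP3, MMP7, MMP8, MMP10, MMP20, MMP21, MMP26 and MMP27. They include 6 of the 9 MMP genes clustered on chromosome 11, among them the stromelysins MMP3 and MMP10 and the matrilysin MMP7. Of that cluster MMP1, MMP12 and MMP13 reached 10 counts, and of these MMP1 was called without the replicate block and MMP12 with it, untreated. The remaining members, ADAM11, ADAM22, ADAM28, MMP11, MMP17 and MMP24, were not called in a comparison, and ADAM28 was the only one of them with a group mean of at least 1 CPM.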

How the data were processed

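Total RNA of both HT1376 lines, untreated or given IFNγ for 48 hours, was depleted of ribosomal RNA and sequenced in triplicate. The authors deposited raw counts per gene, made with STAR 2.7.11a (submitters' processing notes) on GRCh38 with Ensembl 103 and htseq-count, after removing Mycoplasma reads. The strand and multi-mapping settings are not given in the sources used here. Counts were tested with edgeR 4.0.16 (TMM, quasi-likelihood, R 4.3.3) over genes with at least 10 counts in the libraries compared, with Benjamini-Hochberg adjustment over all genes tested. CPM were TMM-normalized. Exonic lengths and coordinates came from GENCODE 44 (GRCh38), promoters from RefSeq. DESeq2 1.42.0 and the other alternatives are described with their effects further on. The fits were tested on simulated data with 200 genes changed by a log2 fold change of 2. In the main fit 8.16% of calls between the untreated lines were false, and 10.6% with IFNγ. The share was 4.89% with IFNγ in HT1376 CT, 8.63% in HT1376 FOXP3 KO and 6.79% for the interaction. Over the comparisons it was 9.28% to 17.5% with the replicate block, 2.34% to 8.02% with its bias adjustment and 10.6% to 21.1% with DESeq2. Calls between the lines near the threshold are thus less certain than their adjusted p. The members and gene lists were chosen with earlier results of these data known.

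Values in every library were given for the 8 genes with the largest absolute log2 fold change among those called with a group mean of at least 1 CPM in each comparison, and for TIMP1 to TIMP4, ADAM10, ADAM17, MMP14 and ADAMTS15. Up to 4 called genes of each list, those with the highest mean level, were eligible to be named. A few genes of the lists are not reported here and were left out of their counts. A group with at most 3 counts in each library was given as a bound or as a ratio with a counting interval. ADAMTS14 was named in counts after its values were seen. Library totals were 12705778 to 39270042 counts in HT1376 CT, 4490684 to 19194488 with IFNγ, 10476942 to 21858079 in HT1376 FOXP3 KO and 9054262 to 30680995 with IFNγ, and no 2 libraries of the same group agreed within counting noise. Deviations of log2(CPM + 1) from the group means correlated between libraries of the same number (r = 0.116 to 0.559 over all such pairs), beside -0.441 to 0.170 between libraries of different numbers, which overlaps that range for pairs between the lines, so same-numbered libraries were taken as paired and the replicate block is given where it changed a call. Nothing says that replicates were separate cultures, so p-values measure only the spread between these samples, which may be technical.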

Additional observations from a re-analysis of the deposited data

Results flagged for a closer look

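The difference between the lines in the IFNγ response of MMP19 was picked out because the matched libraries moved in opposite directions. In HT1376 CT MMP19 was higher with IFNγ in all 3 numbers and in HT1376 FOXP3 KO it was lower in all 3. The interaction had a log2 value of -1.42 with an adjusted p = 0.887 in edgeR's quasi-likelihood test, so the difference did not pass. With the replicate number as a block (edgeR's bias-adjusted deviance) the interaction was -1.44 with an adjusted p = 0.133. In separate fits of each line with the same block, the rise in HT1376 CT was called (1.21, adjusted p = 0.00695) and the value in HT1376 FOXP3 KO was not (-0.26, adjusted p = 0.584).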

How the results depend on the processing

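Of the genes called without a block, 2 of 4 with IFNγ in HT1376 CT, 19 of 21 between the untreated lines and 13 of 20 between the lines with IFNγ were called in every alternative fit that tested them and with each library left out, and 0 called values changed sign. The fold threshold (absolute log2 fold change over 1), which is no refit and is not in these counts, kept 2 of the 4, 18 of the 21 and 18 of the 20, without ADAMTS12 and MMP28 in HT1376 CT, ADAM10, ADAM17 and TIMP3 between the untreated lines, and ADAMTS1 and TIMP3 between the lines with IFNγ. edgeR's filterByExpr, a stricter filter on low counts, left MMP2 untested in both line comparisons and ADAMTS3, ADAMTS5, ADAMTS17 and ADAMTS20 untested with IFNγ, where its count was 14 against 20, so MMP2 untreated and ADAMTS20 with IFNγ held only in the fits that tested them. Beyond single libraries and these untested genes, the calls lost in some fit were ADAMTS12 and MMP28 with IFNγ in HT1376 CT, ADAM10 untreated, and ADAM32, ADAMTS1 and ADAMTS16 between the lines with IFNγ. The count of 4 with IFNγ in HT1376 CT became 2 with the fold threshold, 11 with no filter beyond 1 count, 7 with DESeq2, and 17 with the replicate block or the replicate block with bias-adjusted deviance. All genes called there went from 1307 to 679, 2248, 1793, 4530 and 4102 with the fold threshold, no filter, DESeq2, the block and the bias-adjusted block. With IFNγ in HT1376 FOXP3 KO the blocks gave 7 and 6 of these genes against 0, and 1334 and 1027 of all genes against 237. The fold threshold took all genes called between the lines from 8135 to 4944 untreated and from 7046 to 4625 with IFNγ. For the interaction, no filter gave 1 member against 0, and 294 of all genes against 31, with 160 under DESeq2, 336 and 230 under the blocks and 49 without the libraries numbered 12. The other calls between the lines were within 1.5 times under the block. Leaving out 1 library gave 2 to 4 members and 761 to 1201 genes with IFNγ in HT1376 CT, and 15 to 33 genes for the interaction. The lowest values came without HT1376 CT 12 or HT1376 CT with IFNγ 11 (2 members), HT1376 CT with IFNγ 13 (761; 808 without HT1376 CT 11 and 839 without HT1376 CT 13) and HT1376 CT 13 (15). The cause of these shifts was not tested. Some genes, such as ADAMTS5 and MMP2, had only a few counts in a library, and whether depth limited their calls was not tested.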
